A study of Homo sapiens with 17 samples.

Results

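Long noncoding RNAs (lncRNAs) that were higher in growing IMR90 ER:RAS fibroblasts than after senescence was induced were followed through SMARCA4 knockdown. A gene was a member when its GENCODE type was lncRNA, its mean in DMSO was at least 0.5 CPM (counts scaled to a library total of 1e6 gene counts), and that mean was at least 4 times the 4OHT siNT mean plus 0.05 CPM. Of 18866 lncRNA genes in the tables, 2160 had a DMSO mean of 0.5 CPM or more. The whole rule was met by 80, with 1 further locus left out. Of the 80, 76 passed the filter on low counts for the statistical test. The fall from DMSO to 4OHT was therefore what the members were chosen by, and it is given below as a description with no test.

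IMR90 is an established line of human lung fibroblasts, and all 17 libraries came from IMR90 cells carrying a retroviral ER:RAS fusion, which 4-hydroxytamoxifen (4OHT) activates to drive oncogene-induced senescence (OIS). Of these, 5 libraries were from cells given DMSO vehicle and a nontargeting siRNA (DMSO siNT), 6 from cells given 4OHT with siNT (4OHT siNT), and 6 from cells given 4OHT with an siRNA against SMARCA4 (4OHT siSMARCA4). The labels carry the number 2 or 4, which for the knockdown marks the siRNA, and a tag such as 1V or 3VM. No label gives a time, and there is no DMSO group with the knockdown, so the knockdown was compared within 4OHT only. SMARCA4 encodes BRG1, the ATPase of SWI/SNF chromatin remodelling complexes.

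An lncRNA is a transcript of little or no coding capacity, usually spliced and polyadenylated like an mRNA. Many start close to a protein-coding gene and run away from it (divergent transcripts, named -DT), lie across it on the opposite strand (antisense, named -AS), or lie inside its introns (named -IT). Others carry microRNA hairpins and serve as host transcripts. Their levels are often bound to cell type, and some are cleared quickly in the nucleus by the RNA exosome.

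Among the members, 6 were hosts of microRNAs: MIR100HG, MIR137HG, MIR193BHG, DLEU2, MIR130AHG and MIR924HG. RefSeq (GRCh38.p14) places 14 microRNA genes on their strand inside them, with 25 mature products and 24 distinct seeds. The products below are those for which these hosts are best known, shown because the host RNAs are the members' most widely studied part. Each is written 5′ to 3′ with the seed, bases 2 to 8, in capitals.
hsa-let-7a-5p (MIR100HG): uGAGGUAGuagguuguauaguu
hsa-miR-100-5p (MIR100HG): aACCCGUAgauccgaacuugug
hsa-miR-125b-5p (MIR100HG): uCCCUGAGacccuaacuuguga
hsa-miR-137-3p (MIR137HG): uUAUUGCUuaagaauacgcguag
hsa-miR-193b-3p (MIR193BHG): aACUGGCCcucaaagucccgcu
hsa-miR-365a-3p (MIR193BHG): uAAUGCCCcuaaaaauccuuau
hsa-miR-15a-5p (DLEU2): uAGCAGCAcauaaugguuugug
hsa-miR-16-5p (DLEU2): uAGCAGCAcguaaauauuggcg

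The pair from DLEU2 has 1 seed in common and was the only such pair. The mature microRNAs themselves were not measured in these poly(A)-selected libraries, and the rows of these microRNA genes held at most 23 counts summed over the DMSO libraries.

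Libraries held 39.1 to 69.0 M counts (M is 1e6), of which 38.6 to 67.8 M were gene counts, so 1 count was worth 0.0148 to 0.0259 CPM. SMARCA4 itself was at 263 ± 10.6 CPM (SD, n = 6) in 4OHT siNT and 89.0 ± 22.5 CPM (n = 6) in 4OHT siSMARCA4, with 250.4 CPM as the lowest siNT library and 127.6 CPM as the highest knockdown library. The 10 fibroblast markers summed to 7735 to 29777 CPM across libraries. The 7 epithelial markers summed to 0.733 to 1.42 CPM in DMSO, 0.270 to 0.533 CPM in 4OHT siNT and 0.163 to 0.369 CPM in 4OHT siSMARCA4. The 1 of them tested, EPCAM, was lower with 4OHT and with siSMARCA4. The 5 leukocyte markers summed to 0.122 to 0.390 CPM across libraries. The 5 endothelial markers summed to 3.53 to 11.5 CPM in DMSO, 9.79 to 14.5 CPM in 4OHT siNT and 7.54 to 11.3 CPM in 4OHT siSMARCA4. Of 4 tested, 3 were higher with 4OHT: PECAM1 (log2 fold change 5.80, from 0.0156 to 0.920 CPM), CLDN5 (2.49) and VWF (1.76). TEK (0.45) did not pass. CDH5, too low to be tested, was at 0.0404 CPM in 4OHT siNT and at 0 in DMSO. The part of these markers in the members' values was not tested. Of these fibroblast markers, 7 were lower and 1 higher with 4OHT, and 7 lower with siSMARCA4. Their sum was lower with 4OHT and lower again with siSMARCA4, at 24725 to 29777, 13462 to 17029 and 7735 to 11072 CPM in the 3 groups.

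Libraries differed in 1 measure that bears on antisense members, and whether it is technical was not tested. Over 315 lncRNAs outside the members whose exons lie mostly opposite the exons of 296 expressed protein-coding genes, the lncRNA count relative to the sense count ran from 0.376% to 2.78% among libraries, a 7.38-fold range. The DMSO libraries were at 1.98%, 1.63%, 2.53%, 0.887% and 0.517%. The 4OHT siNT libraries ran from 0.376% to 2.78% and the 4OHT siSMARCA4 libraries from 1.19% to 2.30%. The group means were close, at 1.51% ± 0.813 (SD, n = 5), 1.53% ± 1.09 (n = 6) and 1.63% ± 0.394 (n = 6). Within a group, however, this opposite-strand share split the libraries: 3 of 5 DMSO, 3 of 6 4OHT siNT and all 6 4OHT siSMARCA4 libraries were over 1%.

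**Figure D1:**
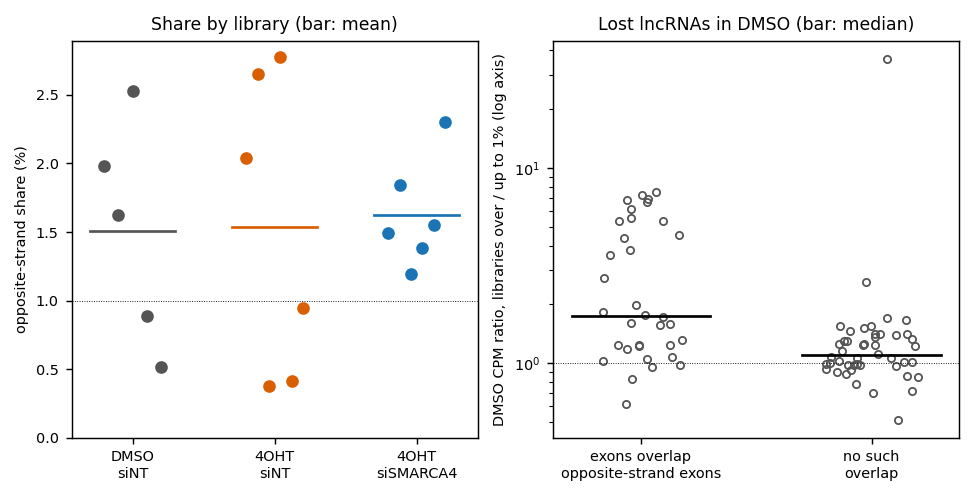
The left panel plots the opposite-strand share in percent for each library by group, with the group mean as a bar and a dotted line at 1%. The right panel plots, on a log axis, each member's mean CPM in the 3 DMSO libraries over 1% divided by that in the 2 others, with a median of 1.74 for the 34 members whose exons overlap opposite-strand coding-gene exons and 1.10 for the 46 others.

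The members split on this measure. In DMSO, the 3 libraries over 1% were those numbered 2 and the 2 others those numbered 4, so the share and the number cannot be told apart there. In DMSO, 14 of the 34 members with exons opposite a protein-coding exon were more than 2-fold higher in the libraries over 1%, against 2 of the 46 without such overlap. The 34 also varied more among DMSO libraries, with a median coefficient of variation of 42.8% against 23.2%. For the 46, the lowest DMSO library lay above the highest 4OHT siNT library in 45, and for the 34 it did so in 25. The members were chosen on these libraries, and the share of all lncRNAs so separated was not counted. Within the libraries over 1%, the rule was met by 77 of the 80. Within those up to 1% it was met by 56, namely 39 of the 46 and 17 of the 34. The part of opposite-strand reads in the levels of the 34 was not tested, and the values of some are given below for both kinds of library.

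The tag and the number 2 or 4 also marked the libraries. Every 4OHT siNT library carried a VM tag. DMSO 2-1V and 2-2V and 4OHT siSMARCA4 2-3V, 4-2V and 4-3V carried a V tag. The tag is thus uneven between the groups, and within 4OHT siSMARCA4 between the numbers, so its part cannot be fully told apart from theirs. In 4OHT siNT, all 3 libraries numbered 2 lay above all 3 numbered 4 for 25.1% of the 19473 genes tested and below them for 12.5%, and for 14 (18.4%) and 4 (5.26%) of the 76 members tested. In 4OHT siSMARCA4 these shares were 7.03% and 7.503% of genes. With the number as a covariate, chosen after the data were seen, 6 members were higher and 10 lower with siSMARCA4, against 6 and 11 without it, and GAS6-AS1 lost its call.

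Summed over all 80, the lncRNAs were at 355 ± 53.5 CPM (SD, n = 5) in DMSO, 59.7 ± 5.20 CPM (n = 6) in 4OHT siNT and 56.9 ± 5.99 CPM (n = 6) in 4OHT siSMARCA4. The 4OHT ranges of this sum overlapped, at 52.8 to 65.8 CPM and 49.2 to 63.5 CPM, and both lay below the lowest DMSO value of 300.2 CPM. Most members were rare: 23 were under 1 CPM in DMSO, 43 between 1 and 5 CPM, and 14 at 5 CPM or more. The median DMSO level was 1.65 CPM, and the median ratio used by the rule was 6.08. In bulk RNA, fewer cells with a transcript and less transcript per cell cannot be told apart.

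MIR100HG was the most abundant member and gave 24.4% of the summed DMSO level. It spans chr11:122028325-122556721 (GRCh38, minus strand). Its DMSO libraries were at 73.9, 81.1, 78.8, 101 and 98.7 CPM. With 4OHT siNT it ran from 12.4 to 18.6 CPM (median 16.3), and with siSMARCA4 from 15.9 to 22.4 CPM (median 19.3). All 4OHT libraries lay below all DMSO libraries, and the 4OHT groups overlapped. MIR100HG was higher in DMSO libraries with a low opposite-strand share (99.8 CPM) than in those with a high one (78.0 CPM), without overlap. Its exons lie opposite no coding exon.

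The other microRNA hosts were rarer. MIR137HG, whose exons share 494 bases with DPYD on the same strand, had means of 6.59 ± 0.864, 0.951 ± 0.164 and 1.14 ± 0.298 CPM in DMSO, 4OHT siNT and 4OHT siSMARCA4. MIR193BHG had means of 3.73 ± 0.666, 0.702 ± 0.118 and 1.05 ± 0.306 CPM. DLEU2, the host of miR-15a and miR-16-1 in the region deleted in lymphocytic leukemia, was at 2.00, 2.56, 1.597, 2.01 and 1.82 CPM in DMSO. It ran from 0.312 to 0.580 CPM (median 0.387) in 4OHT siNT and from 0.408 to 0.651 CPM (median 0.551) in 4OHT siSMARCA4. MIR130AHG was at 1.75, 0.351 and 0.252 CPM in the 3 groups and MIR924HG at 0.567, 0.0576 and 0.0359 CPM, so that in these the siSMARCA4 mean was the lowest. None of the 6 hosts passed the test for the knockdown.

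Other abundant members lie across or beside a coding gene. LOXL1-AS1 (chr15:73908071-73928248, minus strand) lies across LOXL1, which encodes a lysyl oxidase that crosslinks elastin. Its DMSO libraries were at 27.2, 24.1, 28.3, 18.5 and 14.7 CPM, against 4.79 to 6.04 CPM in 4OHT siNT and 3.33 to 5.44 CPM in 4OHT siSMARCA4. THBS1-IT1 (chr15:39586561-39587293, plus strand) is a single-exon RNA of 733 bases annotated within THBS1, the gene of the matrix protein thrombospondin 1. It was at 10.7, 12.1, 12.4, 12.3 and 20.3 CPM in DMSO, 1.62 to 4.36 CPM in 4OHT siNT and 1.12 to 2.28 CPM in 4OHT siSMARCA4. It lies on the strand of THBS1, so reads of the unspliced host transcript would also be counted there.

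GAS6 encodes a secreted ligand of the TYRO3, AXL and MERTK receptors, and a pair of members flank or cross it. GAS6-DT (chr13:113864112-113866834, plus strand) starts next to the GAS6 start and runs the other way. It was at 20.1, 18.8, 21.4, 16.0 and 14.96 CPM in DMSO, 2.25 to 4.105 CPM in 4OHT siNT and 0.737 to 2.10 CPM in 4OHT siSMARCA4, so that the 3 groups did not overlap. GAS6-AS1 (chr13:113815630-113845744, plus strand) crosses the body of GAS6. Its DMSO libraries were at 28.7, 23.9, 40.6, 11.9 and 4.46 CPM, in the same order as the opposite-strand share of these libraries. Its DMSO mean was 31.0 CPM in libraries over 1% and 8.17 CPM in the others, and its 4OHT siNT means were 5.75 and 2.07 CPM in the same split.

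The start region between GAS6 and GAS6-DT is shown because both genes moved in the same direction in both comparisons. The window is chr13:113863927-113864226 (GRCh38.p14, plus strand, RefSeq promoter of GAS6-DT), with the 35 bases that lie between the GENCODE starts in capitals. GAS6 runs leftward from them and GAS6-DT rightward. The window is 79.7% G and C, and none of the 6 searched motifs occurs in it.
GAS6-DT start region: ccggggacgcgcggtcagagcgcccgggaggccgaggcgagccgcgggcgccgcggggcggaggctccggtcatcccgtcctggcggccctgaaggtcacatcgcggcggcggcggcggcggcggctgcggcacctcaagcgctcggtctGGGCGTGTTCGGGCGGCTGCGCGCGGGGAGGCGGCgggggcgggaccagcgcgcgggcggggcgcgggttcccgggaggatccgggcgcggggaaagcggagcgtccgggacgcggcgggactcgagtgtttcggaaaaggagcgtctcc

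Some antisense members had a wide spread between libraries. ENSG00000267328 (chr19:35754566-35755490, plus strand) lies wholly opposite exons of HSPB6, which encodes a small heat shock protein of muscle. It was at 16.9, 14.2, 33.4, 6.33 and 3.19 CPM in DMSO, 0.511 to 5.77 CPM in 4OHT siNT and 0.876 to 3.57 CPM in 4OHT siSMARCA4, and all 3 groups overlapped. Its DMSO mean was 21.5 CPM in libraries over 1% and 4.76 CPM in the others. It stood at 4.03% of HSPB6 in DMSO, 3.39% in 4OHT siNT and 4.14% in 4OHT siSMARCA4. ACTA2-AS1 (chr10:88932390-88940820, plus strand) has 51.5% of its exonic bases opposite other exons, mainly those of ACTA2, the gene of smooth muscle actin. It was at 8.05, 7.52, 25.8, 2.92 and 1.58 CPM in DMSO, 0.317 to 3.84 CPM in 4OHT siNT and 1.45 to 4.27 CPM in 4OHT siSMARCA4. Its DMSO means in the same split were 13.8 and 2.25 CPM and its 4OHT siNT means 3.69 and 0.650 CPM, so that it met the 4-fold rule over all libraries but in neither kind of library alone, with ratios of 3.69 and 3.22. Its level was 3.07%, 2.48% and 3.08% of that of ACTA2 in the 3 groups, while ACTA2 went from 299 ± 126 to 87.6 ± 9.44 CPM. The 5 smooth muscle markers summed to 402 to 703 CPM in DMSO, 69.9 to 99.7 CPM in 4OHT siNT and 25.1 to 49.2 CPM in 4OHT siSMARCA4. Of the 5, 4 were lower with 4OHT. With siSMARCA4, 1 was lower and 1 higher, so the lower sum does not describe each marker. For both RNAs, the ratio to the sense gene changed less between DMSO and 4OHT siNT than the level did.

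The remaining abundant members overlap no coding gene. LINC01963 (chr2:216217045-216220192, plus strand) is a single-exon RNA at 11.1, 16.7, 12.7, 14.6 and 11.6 CPM in DMSO, 2.29 to 3.93 CPM in 4OHT siNT and 1.73 to 2.87 CPM in 4OHT siSMARCA4. ENSG00000288781 (chr4:114281113-114364978, minus strand), with no coding gene within 50 kb, was at 9.86, 13.3, 16.8, 11.3 and 16.2 CPM in DMSO, 0.384 to 2.02 CPM in 4OHT siNT and 0.443 to 1.57 CPM in 4OHT siSMARCA4. In both, DMSO stood clear of 4OHT and the 4OHT groups overlapped. ENSG00000270055 (chr15:30487963-30490313, plus strand) was at 5.17, 8.50, 7.80, 7.26 and 8.23 CPM in DMSO, 1.15 to 1.99 CPM in 4OHT siNT and 1.69 to 3.72 CPM in 4OHT siSMARCA4. In this last one too, DMSO stood clear of both 4OHT groups.

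**Figure D2:**
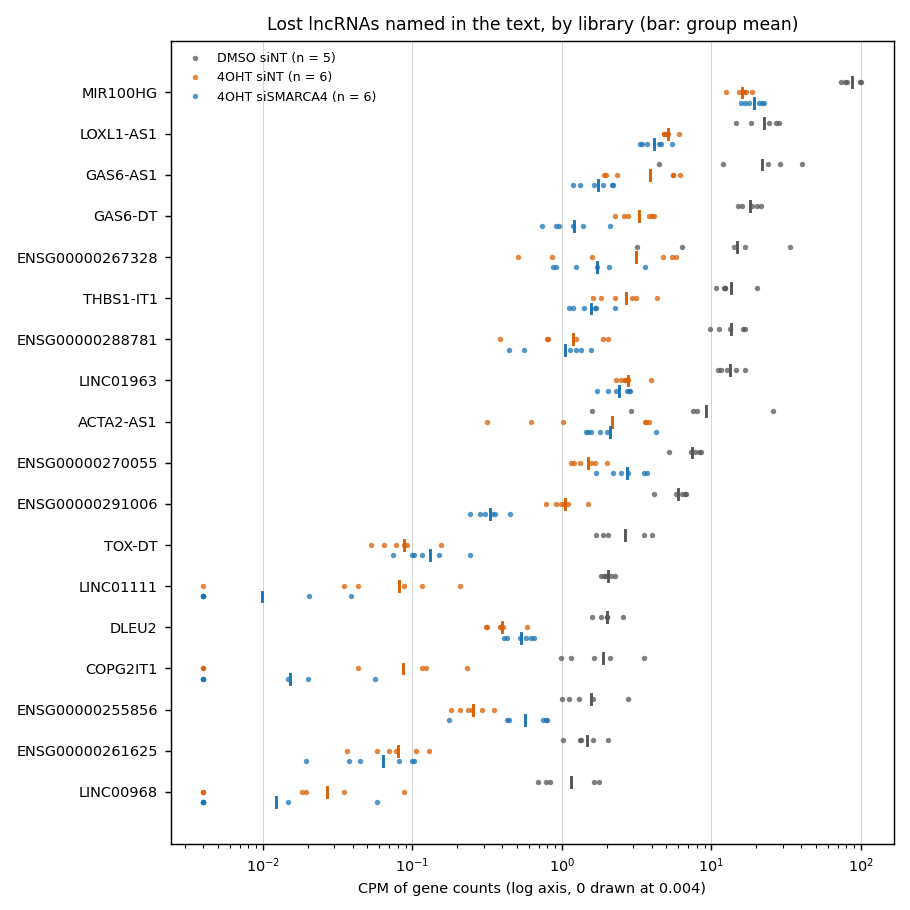
Each row is 1 of 18 members named by the rule in the methods, and each dot is 1 library by group on a log axis of CPM, with zeros drawn at 0.004 and group means as bars. The DMSO values of MIR100HG, 73.9 to 101 CPM, stand clear of both 4OHT groups, whereas those of ACTA2-AS1, 1.58 to 25.8 CPM, reach into them.

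The 5 members with the highest ratio were near loss in 4OHT. TOX-DT, divergent from TOX, which encodes an HMG-box factor, had the highest ratio of 19.01: it was at 3.99, 3.53, 2.02, 1.89 and 1.70 CPM in DMSO and 0.0524 to 0.154 CPM in 4OHT siNT. LINC01111 was at 1.82 to 2.26 CPM in DMSO and at 0 to 0.207 CPM in 4OHT siNT, for a ratio of 15.4. LINC00968 had a ratio of 14.9, COPG2IT1 of 13.9 and ENSG00000261625 of 11.3. TOX-DT, LINC01111 and LINC00968 are on chromosome 8, as were 7 of the 80 members, against 9 on chromosome 11 and 9 on chromosome 15. At these levels a 4OHT library held only a few reads, so the differences between 4OHT groups were mostly not detectable.

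The threshold cut through a continuum. Just inside the ratio were ITGA9-AS1 (4.01), ENSG00000250041 (4.03) and LINC00900 (4.12), and just outside it ENSG00000259275 (3.97), ENSG00000282057 (3.97) and ENSG00000290085 (3.96). On level, ENSG00000274370 (0.517 CPM) and ENSG00000289755 (0.518 CPM) were just inside, and ENSG00000289424 (0.454 CPM) and LINC01515 (0.451 CPM) just outside. LINC01164 qualified on a single library, at 15.6 CPM in 1 DMSO library and 0.119 to 0.504 CPM in the 4 others.

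Where the members start and lie was set beside the other tested lncRNAs. In GENCODE, 11 of 80 members (13.8%) start within an LTR element, the long terminal repeats or internal parts of endogenous retroviruses, against 181 of 3685 other tested lncRNAs (4.91%). They include MIR100HG (LTR12D), LINC01963 (MER49), GAS6-AS1 (THE1A), ENSG00000288781 (MLT1E3), PAXIP1-AS2 (ERV24B_Prim-int) and LINC02984 (HERV3-int). Starts within SINEs (6.25% against 5.56%) and LINEs (3.75% against 5.07%) were closer. No test was made of these shares, and for MIR100HG the RefSeq start lies 455875 bp away from the GENCODE start. Of the members, 12 (15%) were head-to-head with a coding gene, meaning opposite strands with starts within 2 kb, against 25.4% of the other tested lncRNAs. A further 25 (31.2%, against 35.8%) overlapped a coding gene on the opposite strand and 10 (12.5%, against 14.5%) on the same strand. Another 20 (25%, against 16.8%) lay apart within 50 kb, and 13 (16.2%, against 7.41%) had no coding gene that near.

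RefSeq held a promoter window, 250 bases before to 50 after the start, for 32 members. CCAAT occurred on either strand in 13 of the 32 (40.6%), against 34.6% of all 35116 promoters. TTTGAA, the cell cycle homology element (CHR), occurred in 4 (12.5%, against 15.2%), and TATAAA in 3 (9.38%, against 11.5%). TGACTCA, the AP-1 site, and CACGTG, the E-box, occurred in 1 each (3.12%, against 4.95% and 7.26%), and TGACGTCA, the CRE, in none (against 1.85%). None of the 6 sequences stood out in the members by these shares. No motif searched contains another.

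Repeat copies inside the members' introns were counted apart from their exons. Counting only repeat loci wholly inside 1 member, outside every exon and inside no other gene, 4786 loci in 37 members were at 11.3 ± 3.298 CPM in DMSO (SD, n = 5), 2.80 ± 0.374 CPM in 4OHT siNT (n = 6) and 3.76 ± 1.14 CPM in 4OHT siSMARCA4 (n = 6). The DMSO libraries (9.43 to 17.2 CPM) lay above all 4OHT siNT libraries (2.11 to 3.18 CPM). These are the libraries the members were chosen on, so the values are a description. The largest were MIR100HG (2.33, 1.22 and 1.08 CPM in the 3 groups) and ENSG00000288781 (2.32, 0.176 and 0.252 CPM). Repeats more than 50 kb from any gene were at 106 ± 39.2, 104 ± 15.6 and 170 ± 45.3 CPM in the 3 groups, so the background of such loci was about level between DMSO and 4OHT siNT and higher in 4OHT siSMARCA4. The part of that background in the knockdown values of the members was not tested.

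The knockdown asked whether losing SMARCA4 in senescent cells altered these RNAs. Most of them did not pass the test, and more passed downward than upward. Of the 76 tested, 11 were lower (14.5%) and 6 were higher (7.89%) in siSMARCA4 than in siNT by edgeR's quasi-likelihood test with Benjamini-Hochberg adjustment over 19473 genes at a threshold of 0.05. Among all 3761 lncRNAs tested, 6.86% were lower and 5.72% higher. Among all 19473 genes tested, 13.8% were lower and 10.4% higher, so the members' share of lower calls was near that of all genes. The members were not matched for level to all lncRNAs. More lower than higher calls did not hold in number 4 libraries alone (1 and 1), nor for the 280 lncRNAs tested at a ratio of 2 or more (31 lower and 35 higher). The number 4 fit holds fewer libraries and the share of all lncRNAs called in it was not counted, so its few calls say little about direction. The median log2 fold change was -0.15 over the 76, -0.03 over all lncRNAs and -0.02 over all genes. Both directions remained far below DMSO: the siSMARCA4 mean was a median 11.7% of the DMSO mean, against 12.3% for siNT, and only 7 members exceeded 25% of DMSO with the knockdown. For 73 of the 80, every siSMARCA4 library lay below every DMSO library. The members were chosen for a high DMSO level, and the share of all lncRNAs separated in this way was not counted.

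**Figure D3:**
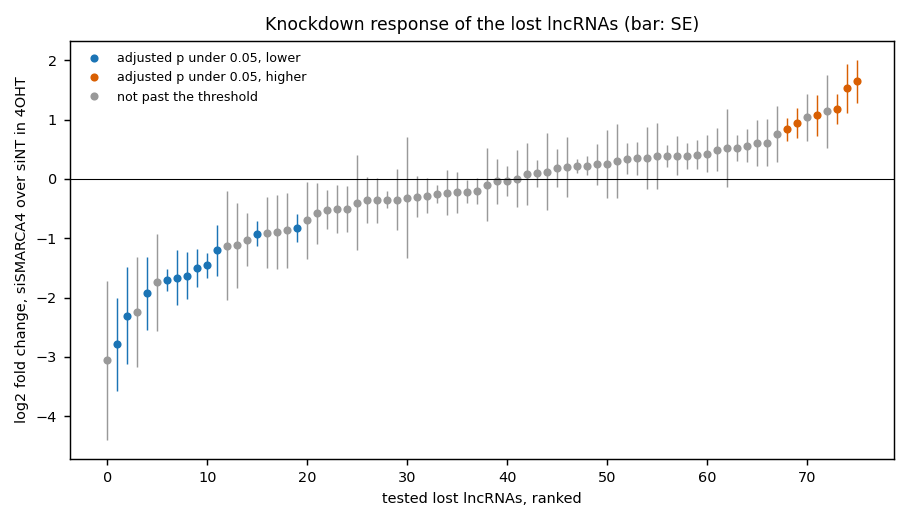
The log2 fold change of siSMARCA4 over siNT in 4OHT is plotted for the 76 tested members in rank order with its SE, coloured where the adjusted p was under 0.05. The 11 lower and 6 higher members sit within a range that crosses 0, and the lowest value, LINC01164, did not pass the threshold.

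The siNT libraries in 4OHT entered both the choice of members and this comparison. When members were instead chosen on libraries numbered 2 (137 lncRNAs) and compared within those numbered 4, 1 was higher and 1 lower of 125 tested, with a median of -0.28. Chosen on number 4 (70 lncRNAs) and compared within number 2, 7 were higher and 13 lower of 68 tested, with a median of -0.08. The same fit on all members gave 1 higher and 1 lower in the number 4 libraries alone. The share of all lncRNAs called in these smaller fits was not counted, so these counts do not set the members apart from other lncRNAs.

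Only 2 members separated the 4OHT groups completely while passing the test, and both were lower with the knockdown. The share of all lncRNAs that did so was not counted. GAS6-DT went from 3.27 ± 0.812 CPM (n = 6) to 1.21 ± 0.488 CPM (n = 6), which is -1.46 ± 0.21 in log2 units (SE; edgeR, adjusted p = 0.000129). In the number 4 libraries alone it did not pass. ENSG00000291006 (chr6:52664366-52669155, plus strand) had DMSO libraries at 4.16 to 6.73 CPM. It ran from 0.786 to 1.504 CPM in 4OHT siNT and from 0.245 to 0.447 CPM in 4OHT siSMARCA4, a log2 fold change of -1.70 ± 0.18 (edgeR adjusted p = 1.01e-05). Its exons share 436 bases with a transcribed pseudogene, so its reads could be split with a near copy and its level is uncertain.

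The change in GAS6-DT differed between libraries numbered 2 and 4. The log2 fold change was -2.18 in the number 2 libraries and -0.73 in the number 4 libraries, a difference of -1.44 ± 0.29 (SE, edgeR interaction adjusted p = 0.0409, 12 libraries). The siNT libraries also split by number, at 3.84, 4.105 and 4.02 CPM for number 2 and 2.77, 2.25 and 2.61 CPM for number 4, so a difference between siRNAs and one between the controls cannot be told apart. Nor can the V or VM tag, which is uneven between the numbers in siSMARCA4. There 4-2V and 4-3V were at 1.39 and 2.10 CPM and 4-2VM at 1.18 CPM, and 2-3V at 0.918 CPM with 2-1VM and 2-3VM at 0.958 and 0.737 CPM. GAS6-DT was the only member called among the 37 that could be tested this way, against 0.343% of lncRNAs called.

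Other members were lowered by the knockdown and, apart from those already described, are named after their values were seen. ENSG00000270823, a single-exon antisense RNA in MEST (log2 fold change -2.31, edgeR adjusted p = 0.0482), and LINC01111 (-2.79, adjusted p = 0.0143) had the largest falls. ZFHX4-AS1 (-1.93, adjusted p = 0.0283) lies across ZFHX4, a homeobox and zinc finger gene. LINC02984 (-1.50, adjusted p = 0.00273), LINC00842 (-1.63, adjusted p = 0.00700) and ENSG00000276012 inside ITGBL1 (-1.66, adjusted p = 0.0150) also passed, as did GAS6-AS1 (-1.21, adjusted p = 0.0470), EDIL3-DT (-0.93, adjusted p = 0.00460) and THBS1-IT1 (-0.83, adjusted p = 0.0171). Their siNT and siSMARCA4 libraries overlapped. The calls of 4 of them rested on single libraries, whose removal took the adjusted p to between 0.0516 and 0.126: ENSG00000270823 lost its call without any 1 of 11 libraries, GAS6-AS1 of 9, ZFHX4-AS1 of 5 and THBS1-IT1 of 1 (4OHT siNT 2-3VM, adjusted p = 0.0517). Over all 29 alternative fits, ENSG00000270823 lost its call in 14 (adjusted p up to 0.140), GAS6-AS1 in 13 (up to 0.133), ZFHX4-AS1 in 10 (up to 0.508) and THBS1-IT1 in 6 (up to 0.220). Among the same fits, LINC01111 lost its call in 2, VM libraries alone and number 4 libraries alone (adjusted p up to 0.655, log2 fold change to -0.97). ENSG00000276012 lost its call in 5 (adjusted p up to 0.277), among them libraries over 1% opposite-strand share, LINC00842 in 4 (up to 0.111), EDIL3-DT in 3 (up to 0.0691) and LINC02984 in 1, number 4 libraries alone (0.227). Several of these calls rest on a few reads per library. LINC01111 was at 0 to 0.207 CPM in siNT and 0 to 0.0388 CPM in siSMARCA4, and ZFHX4-AS1 at 0.0215 to 0.165 and 0 to 0.0813 CPM. ENSG00000276012 was at 0.0175 to 0.207 and 0 to 0.0597 CPM, and LINC00842 at 0.0778 to 0.229 and 0.0187 to 0.102 CPM.

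Members that rose with the knockdown, also named after their values were seen, stayed under DMSO in every library. Over all members, the siSMARCA4 mean reached at most 45.6% of the DMSO mean. ENSG00000270055 rose from 1.49 ± 0.317 to 2.74 ± 0.783 CPM (log2 fold change 0.84 ± 0.19, edgeR adjusted p = 0.00417), to 37.0% of its DMSO mean. PAXIP1-AS2 rose from 0.439 ± 0.162 to 0.864 ± 0.204 CPM (0.95 ± 0.25, adjusted p = 0.0105), ENSG00000289535 from 0.138 to 0.413 CPM (1.53 ± 0.41, adjusted p = 0.0121) and ENSG00000255856 from 0.254 to 0.562 CPM (1.08 ± 0.34, adjusted p = 0.0299). ENSG00000291233 (1.64 ± 0.37, adjusted p = 0.00361) and ENSG00000290879 (1.18 ± 0.25, adjusted p = 0.00264) share exons with a transcribed pseudogene, so reads could be split with near copies and both are uncertain. The call of PAXIP1-AS2 was lost in 5 of 29 alternative fits, namely with the V or VM tag as a covariate and among libraries over 1% opposite-strand share, VM libraries or those of either number alone (adjusted p up to 0.159). The call of ENSG00000255856 was lost without any 1 of 7 libraries (adjusted p = 0.0548 to 0.0703) and in number 4 libraries alone (0.349). In number 4 alone the calls of ENSG00000289535 (edgeR adjusted p = 0.147), ENSG00000291233 (0.295) and ENSG00000290879 (0.107) were lost too. That of ENSG00000270055 was lost in number 2 alone (0.114). Leaving out the 4 members that share exons with transcribed pseudogenes, 4 of 72 were higher and 10 lower. Within siSMARCA4, every VM library lay above every V library for ENSG00000270055 (2.77 to 3.72 against 1.69 to 2.49 CPM) and ENSG00000289535 (0.427 to 0.777 against 0.133 to 0.318). This also held for ENSG00000255856 (0.752 to 0.795 against 0.175 to 0.443) and ENSG00000291233 (1.61 to 1.95 against 0.291 to 0.918). The lowest DMSO libraries of these RNAs were at 1.00 and 2.23 CPM, so their VM libraries came closer to DMSO. The tags overlapped for ENSG00000290879 and for PAXIP1-AS2, whose V libraries tended higher. The part of the tag was not tested.

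Of the 14 members at 5 CPM or more in DMSO, 6 passed, all described above, and 8 did not. MIR100HG changed by 0.22 ± 0.12 on the log2 scale (edgeR adjusted p = 0.190), but passed in number 2 libraries alone (0.51, adjusted p = 0.0112), where siNT ran from 12.4 to 16.2 CPM and siSMARCA4 from 17.8 to 22.4 CPM. LOXL1-AS1 changed by -0.35 ± 0.15 (edgeR adjusted p = 0.0948) and LINC01963 by -0.25 ± 0.15 (adjusted p = 0.247). The rarer host DLEU2 changed by 0.39 ± 0.19 (edgeR adjusted p = 0.152). LOXL1-AS1 passed in 6 of 29 alternative fits, among them those without 4OHT siSMARCA4 4-3V (adjusted p = 0.0328), with the opposite-strand share or the V or VM tag as a covariate, and in number 2 libraries alone, with adjusted p from 0.00620 to 0.774 over all 29. ENSG00000267328 changed by -0.90 ± 0.59 (adjusted p = 0.290), and passed when the opposite-strand share was a covariate or when only libraries over 1% were compared. ACTA2-AS1 changed by -0.10 ± 0.62 (adjusted p = 0.935) and ENSG00000288781 by -0.22 ± 0.35 (adjusted p = 0.696). Of the 5 with the highest ratio, only LINC01111 passed, and TOX-DT (0.50 ± 0.37), COPG2IT1 (-2.25 ± 0.93), LINC00968 (-1.12 ± 0.92) and ENSG00000261625 (-0.36 ± 0.39) did not.

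The genes next to the members were examined next. A neighbour was the nearest protein-coding gene within 50 kb, an overlap counting as no distance, and 67 members had 63 different neighbours, of which 51 were tested. With 4OHT, 40 of the 51 were lower (78.4%) and 2 were higher (3.92%), with a median log2 fold change of -1.64. Among all 14193 protein-coding genes tested, 31.3% were lower and 29.4% higher, with a median of -0.01. Among 2676 neighbours of other tested lncRNAs, 26.6% were lower and 32.8% higher, with a median of 0.05. The neighbours were reached through lncRNAs chosen in the same comparison and libraries, so these values are a description.

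Lower neighbours were found at every kind of position. Counting a gene at each position it holds, they were 10 of 11 head-to-head, 15 of 20 overlapping on the opposite strand, 6 of 8 overlapping on the same strand and 12 of 15 apart. For members without exons opposite a coding exon, 20 of 24 neighbours were lower, with a median of -1.65. The 2 higher were METRNL (log2 fold change 0.59), next to 2 members, and CLP1 (0.61), whose exons share 102 bases with MIR130AHG.

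**Figure D4:**
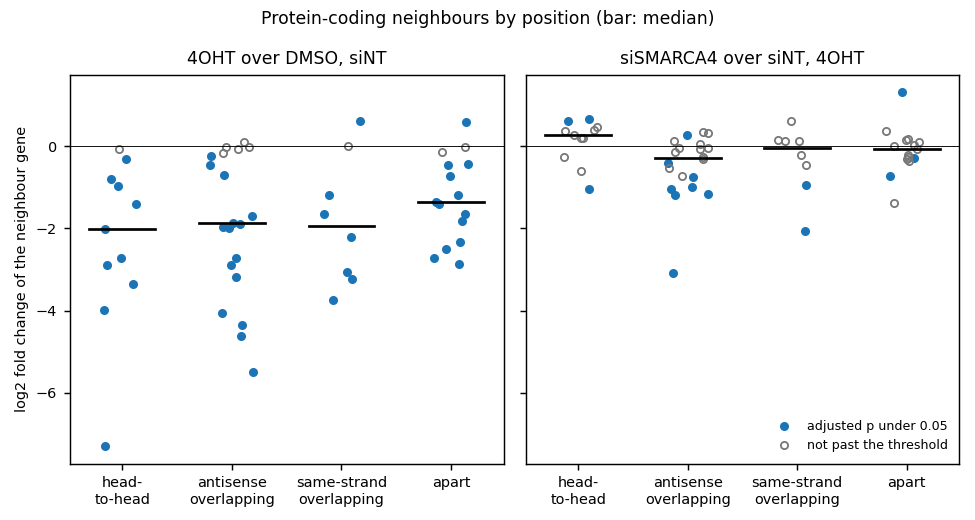
Each dot is 1 neighbour gene placed by its position to the member, with its log2 fold change for 4OHT over DMSO on the left and siSMARCA4 over siNT on the right, filled where the adjusted p was under 0.05 and with medians as bars. On the left the medians are -2.005, -1.88, -1.93 and -1.35, and on the right 0.27, -0.29, -0.04 and -0.07.

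Individual neighbours showed large differences between DMSO and 4OHT siNT. GAS6 was at 1395 ± 71.4 CPM in DMSO and 175 ± 13.2 CPM in 4OHT siNT, a log2 fold change of -2.89 ± 0.13. LOXL1 went from 244 ± 54.0 to 69.6 ± 8.81 CPM (-1.70 ± 0.12), HSPB6 from 367 ± 72.5 to 92.6 ± 6.26 CPM (-1.87 ± 0.19) and THBS1 from 3187 ± 827 to 946 ± 251 CPM (-1.64 ± 0.18). TOX went from 8.40 ± 4.48 to 0.0510 ± 0.0466 CPM (-7.30 ± 0.46) beside its divergent partner TOX-DT. In each of these 5, the lowest DMSO library lay above the highest 4OHT siNT library. MRGPRF, a G protein-coupled receptor gene next to 3 members, went from 75.0 ± 13.2 to 10.5 ± 1.58 CPM (-2.73 ± 0.11), and TMEM14A, next to ENSG00000291006, from 22.1 ± 2.04 to 9.13 ± 1.24 CPM (-1.17 ± 0.11).

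For some neighbours the DMSO and 4OHT siNT libraries overlapped. XRCC5, the Ku80 gene of DNA end joining, was at 371 ± 19.2 and 341 ± 25.6 CPM beside LINC01963, a log2 fold change of -0.01 ± 0.06. STAMBPL1, which ACTA2-AS1 overlaps on the same strand, was at 42.3 ± 3.47 and 39.6 ± 5.38 CPM, and KCNRG, which DLEU2 overlaps on the opposite strand, at 1.35 ± 0.226 and 1.35 ± 0.249 CPM. In COPG2, which COPG2IT1 overlaps on the opposite strand, the groups did not overlap but were close, with a log2 fold change of -0.44 ± 0.12. BLID, which MIR100HG overlaps, was at 0.124 CPM in DMSO and PENK near LINC00968 at 0.1005 CPM, and both were too low to be tested.

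With the knockdown, the neighbours did not move as a group. Of the 51, 11 were lower (21.6%) and 4 higher (7.84%) by edgeR's quasi-likelihood test, against 16.3% and 12.2% of all protein-coding genes, and the median log2 fold change was -0.03 against -0.02. By position, 7 of 20 antisense neighbours were lower and 1 higher, and 1 of 11 head-to-head neighbours was lower and 2 higher.

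Where a member and its neighbour both passed, they moved the same way, in 6 of 6 such pairs with 5 different neighbours, 3 of the pairs resting on the single-library calls named above. Among other tested lncRNAs, 144 of 162 such pairs (88.9%) moved the same way, so the members' count is near the background. MEST, an imprinted gene of mesoderm expressed from the paternal copy, went from 29.3 ± 14.6 to 3.55 ± 0.823 CPM (log2 fold change -3.08 ± 0.28, edgeR adjusted p = 1.598e-06). All siSMARCA4 libraries (2.97 to 5.15 CPM) lay below all siNT libraries, which split by number at 35.4 to 50.5 CPM for number 2 and 13.8 to 18.8 CPM for number 4. ENSG00000270823 (chr7:130495794-130498427, minus strand), its antisense RNA, had DMSO libraries at 2.45, 2.26, 4.105, 0.791 and 0.307 CPM. It ran from 0.0176 to 0.430 CPM in 4OHT siNT and from 0.0187 to 0.117 CPM in 4OHT siSMARCA4. Its DMSO values were in the same order as the opposite-strand share, and it stood at 0.690%, 0.649% and 1.06% of MEST in the 3 groups, within the range of that share over libraries. The part of opposite-strand reads in this pair was not tested. COPG2IT1, another member of this chromosome 7 region, fell short of the threshold (-2.25 ± 0.93, edgeR adjusted p = 0.0860, or 0.0454 to 0.0480 without any 1 of 3 libraries), while COPG2 was lower (-0.41 ± 0.12, adjusted p = 0.0163).

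GAS6 was lower by -1.03 ± 0.12 on the log2 scale (edgeR adjusted p = 1.67e-05), at 65.1 to 118 CPM in siSMARCA4 and 160 to 195 CPM in siNT. Both of its lncRNAs passed in the same direction, GAS6-AS1 with a call kept in only 16 of 29 alternative fits. GAS6-AS1 stood at 1.57%, 2.24% and 1.98% of GAS6 in DMSO, 4OHT siNT and 4OHT siSMARCA4, within the range of the opposite-strand share over libraries. The part of opposite-strand reads in GAS6-AS1 was not tested. ITGBL1, which encodes an integrin beta-like protein, went from 5.82 ± 1.61 to 1.42 ± 0.253 CPM (-2.06 ± 0.17, edgeR adjusted p = 5.14e-07) with the member inside it. Its siNT libraries were at 6.83 to 7.73 CPM for number 2 and 3.84 to 4.69 CPM for number 4, all above the siSMARCA4 libraries. The 79 bases that ENSG00000276012 shares with ITGBL1 exons on the same strand leave their reads hard to assign.

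Among head-to-head pairs, ENSG00000255856 and BCL7A rose together. BCL7A encodes a SWI/SNF subunit, and went from 7.03 to 8.98 CPM in siNT to 10.04 to 16.6 CPM in siSMARCA4 with no overlap (0.62 ± 0.12, edgeR adjusted p = 0.00119), against 12.6 to 16.8 CPM in DMSO. ENSG00000255856, whose exons lie 56.2% opposite exons of BCL7A (chr12:122007434-122020063, minus strand) was at 1.12, 1.62, 1.00, 1.30 and 2.76 CPM in DMSO, 0.182 to 0.352 CPM in siNT and 0.175 to 0.795 CPM in siSMARCA4, with overlap. GCNT4, a glycosyltransferase gene 49581 bp from ENSG00000289535, also rose (1.32 ± 0.33, edgeR adjusted p = 0.00778), from 0.423 ± 0.121 to 1.10 ± 0.556 CPM. In siSMARCA4, every VM library lay above every V library for BCL7A (13.4 to 16.6 against 10.04 to 10.8 CPM). The same was so for GCNT4 (1.41 to 1.73 against 0.485 to 0.712 CPM). In number 4 libraries alone, BCL7A and GCNT4 did not pass (edgeR adjusted p = 0.111 and 0.103), nor did their members.

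Several neighbours passed where their lncRNA did not pass with all libraries. LOXL1 was lower (-0.74 ± 0.12, edgeR adjusted p = 0.000271; 37.3 to 49.6 against 58.6 to 78.4 CPM), and so was HSPB6 (-1.19 ± 0.18, adjusted p = 0.000192). CCBE1, a lymphatic growth factor cofactor head-to-head with the untested ENSG00000267774, was higher (0.67 ± 0.11, adjusted p = 0.000283), from 5.29 ± 0.341 to 8.66 ± 1.17 CPM. THBS1 (-0.47 ± 0.17, adjusted p = 0.0576) and EDIL3 (-0.52 ± 0.19, adjusted p = 0.0569) did not pass with all libraries, and each passed when any 1 of 4 libraries was left out (adjusted p = 0.0366 to 0.0415 and 0.0218 to 0.0490). THBS1 went from 1169 to 704 CPM in number 2 libraries and from 722 to 702 CPM in number 4, and EDIL3 from 51.9 to 32.2 and from 28.6 to 25.6 CPM, and their siNT libraries did not overlap between the numbers. By the same edgeR test XRCC5 (0.05 ± 0.06, adjusted p = 0.632), MRGPRF (-0.27 ± 0.11, adjusted p = 0.0799), TMEM14A (0.17 ± 0.11, adjusted p = 0.269) and TOX (-0.59 ± 0.75, adjusted p = 0.618) did not pass.

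**Figure D5:**
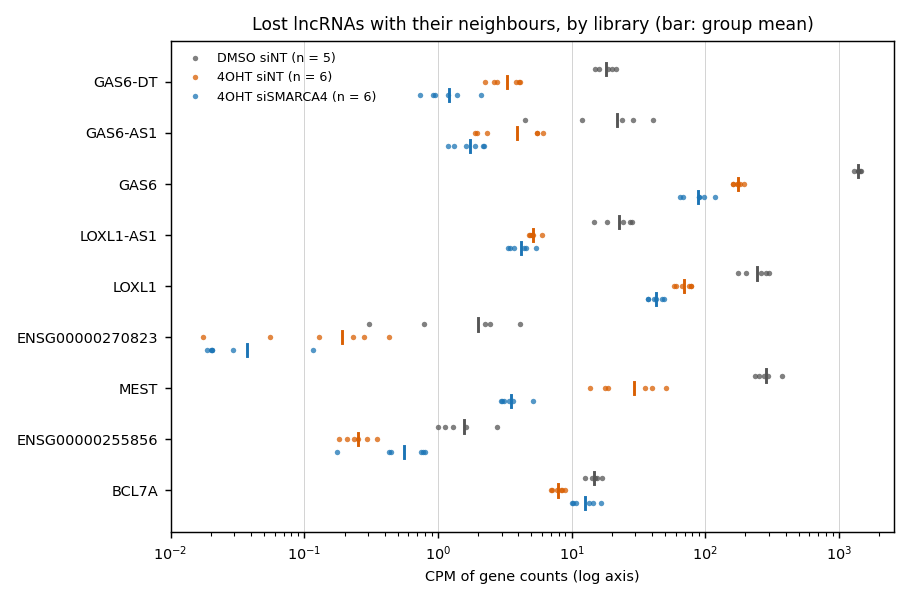
CPM by library on a log axis for 5 members and the 4 coding genes they adjoin (GAS6, LOXL1, MEST and BCL7A), with group means as bars. GAS6 and GAS6-DT separate all 3 groups, MEST in siSMARCA4 stays between 2.97 and 5.15 CPM, and BCL7A in siSMARCA4 rises to 10.04 to 16.6 CPM.

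A further 2 pairs, PRC1 and TMPO with their antisense RNAs, were picked after their values were seen. PRC1, needed for the spindle midzone, was at 25.4 ± 4.47, 0.961 ± 0.133 and 1.26 ± 0.324 CPM in the 3 groups. PRC1-AS1, whose exons lie 75.4% opposite other exons, mainly those of PRC1, was at 1.80, 2.65, 2.23, 0.426 and 0.238 CPM in DMSO and at 0.0259 to 0.175 CPM in 4OHT siNT. Its DMSO mean was 2.23 CPM in libraries over 1% opposite-strand share and 0.332 CPM in the others. TMPO, a nuclear lamina gene, went from 67.7 ± 13.5 to 23.6 ± 1.94 CPM with 4OHT, and TMPO-AS1 from 2.48 ± 0.777 to 0.497 ± 0.268 CPM, with DMSO means of 2.98 CPM in libraries over 1% and 1.74 CPM in the others. The TMPO promoter is shown for its pair of CCAAT boxes, in capitals, both on the plus strand (chr12:98515323-98515622, GRCh38.p14).
TMPO promoter: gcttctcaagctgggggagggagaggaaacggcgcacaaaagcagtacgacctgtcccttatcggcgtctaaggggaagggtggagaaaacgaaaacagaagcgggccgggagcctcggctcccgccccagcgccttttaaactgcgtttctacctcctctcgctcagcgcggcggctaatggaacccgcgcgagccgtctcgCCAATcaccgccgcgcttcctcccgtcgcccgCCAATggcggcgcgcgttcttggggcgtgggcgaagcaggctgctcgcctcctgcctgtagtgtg

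Gene lists placed the members beside related processes. Among all protein-coding genes, 31.3% were lower and 29.4% higher with 4OHT, and 16.3% lower and 12.2% higher with siSMARCA4. All 15 proliferation genes were lower with 4OHT (median log2 fold change -3.99), led by MKI67 (-5.68), CDK1 (-5.44), BUB1 (-5.18) and TOP2A (-4.60). With siSMARCA4, 4 were higher and 2 lower, with CDK1 at 1.39 ± 0.31 (edgeR adjusted p = 0.00390). Of 22 tested transcription factors of lung mesenchyme and position, 15 were lower and 2 higher with 4OHT, among them TBX4 (-3.35), OSR1 (-1.83) and MEIS2 (-1.35). With siSMARCA4, 7 of the 22 were lower and 3 higher. Of 19 tested HOX genes, 11 were lower and 4 higher with 4OHT, and 3 (15.8%) and 2 (10.5%) with siSMARCA4, near the background.

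Genes of the nuclear RNA exosome and of Polycomb, and well-known lncRNAs, moved less evenly. Of 18 genes of the nuclear RNA exosome and its adaptors, 3 were higher and 3 lower with 4OHT, with EXOSC4 at 1.17, MPHOSPH6 at 1.06, EXOSC9 at -1.06 and EXOSC8 at -1.05. With siSMARCA4, 3 were higher and none lower. Of 11 genes of Polycomb repressive complex 2, a histone methyltransferase, 5 were lower and 2 higher with 4OHT, with its catalytic subunit EZH2 at -1.40 and JARID2 at 1.27, and 1 was higher with siSMARCA4. Of 38 tested well-known lncRNAs, which include the members MIR100HG and DLEU2, 12 were lower and 11 higher with 4OHT. Among all tested lncRNAs, 18.1% were lower and 19.8% higher with 4OHT, and 6.86% and 5.72% with siSMARCA4. With siSMARCA4, 11 (28.9%) of the well-known lncRNAs were lower and 1 higher, led by CARMN (-2.03), MIR503HG (-1.31) and MIAT (-1.19). This list was chosen with earlier results of these data known and was not matched for level to all tested lncRNAs.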

How the data were processed

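RNA was sequenced from 17 poly(A)-selected, directional libraries of IMR90 ER:RAS cells. The authors trimmed reads with cutadapt 4.7, aligned pairs to GRCh38 with HISAT2 2.2.1, reporting multiple alignments, and counted genes and repeat loci strand-specifically with TElocal, which shares multimapping reads by maximum likelihood. The deposited values are the estimated counts the authors obtained in this way, 1 table per library. Reads of near copies can be split between genes. The study's methods name Ensembl release 100, but all 62700 GENCODE 44 genes were found among the 62754 gene rows, so GENCODE 44 annotation was used here.

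Members and gene lists were chosen with earlier results of these data known. Counts were rounded and tested over genes and repeat subfamilies together with edgeR 4.0.16 (R 4.3.3): filterByExpr with a minimum count of 10, TMM factors, 1 model with 3 groups, quasi-likelihood tests, and Benjamini-Hochberg adjustment over genes with a threshold of 0.05. DESeq2 1.42.0 was the alternative test. CPM are counts scaled to a total of 1e6 gene counts and not normalised further, and values are mean ± SD. Overlaps used bedtools 2.31.1. The fits were tested on simulated data.

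Named members are the 10 highest in DMSO, the 5 highest ratios, up to 5 called members in each direction whose 4OHT groups do not overlap, well-known lncRNAs, head-to-head pairs called together, and genes at the thresholds, with their nearest coding neighbours and the 4 largest called changes of a list. A gene that this rule names is not reported here. Other called members, neighbours and hosts were named after their values were seen. Nothing in the labels says the libraries of a group came from separate cultures, so p-values measure the spread between these libraries, which may be technical. Depth limits rare members, since 1 count was worth up to 0.0259 CPM. Same-labelled libraries were checked for pairing, and alternatives left out each library, changed normalization, filter, test, covariates, member rule and distance.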

Additional observations from a re-analysis of the deposited data

Results flagged for a closer look

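Among 32 named members and neighbours, 96 groups of libraries were searched for 1 library standing apart from the rest of its group, and 9 had one, where chance gives about 1 in 20. ACTA2-AS1 was at 25.8 CPM in DMSO siNT 2-2VM, the DMSO library with the highest opposite-strand share, against 1.58 to 8.05 CPM in the others. It was also at 4.27 CPM in 4OHT siSMARCA4 4-3V, the knockdown library with the highest share, against 1.45 to 2.01 CPM. The part of opposite-strand reads in these values was not tested.

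THBS1-IT1 was at 20.3 CPM in DMSO siNT 4-3VM against 10.7 to 12.4 CPM in the others. In 4OHT siNT, LOXL1-AS1 was at 6.04 CPM in 2-1VM (others 4.79 to 5.14), LINC01963 at 3.93 CPM in 4-1VM (others 2.29 to 2.75), DLEU2 at 0.580 CPM in 4-1VM (others 0.312 to 0.405) and MRGPRF at 13.4 CPM in 2-3VM (others 9.13 to 10.7). In 4OHT siSMARCA4, COPG2IT1 was at 0.0562 CPM in 2-3V (others 0 to 0.0199) and LINC00968 at 0.0583 CPM in 4-3V (others 0 to 0.0148), levels of a few reads.

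The difference in GAS6-DT between siSMARCA4 and siNT was not alike in libraries numbered 2 and 4: the log2 fold change with number 2 minus that with number 4 was -1.44 (edgeR interaction adjusted p = 0.0409). The siNT libraries split by number too, at 3.84 to 4.105 CPM for number 2 and 2.25 to 2.77 CPM for number 4, so the siRNAs and the controls cannot be told apart in it. The V or VM tag of the siSMARCA4 libraries is uneven between the numbers and cannot be told apart from them either.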

How the results depend on the processing

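Of 1857 values of named genes over 29 alternative settings, 17 of which left out 1 library, 1743 stayed on their side of the threshold, 81 no longer passed and 33 newly passed. The sign changed in 44 values of 10 gene comparisons, none of which passed under either setting. Counts of members, neighbours and list genes were computed over 39 settings. Leaving out single libraries gave 5 to 7 members higher and 8 to 12 lower with siSMARCA4 (6 and 11 with all libraries). It gave 2 neighbours higher and 38 to 40 lower with 4OHT, and 3 to 6 higher and 10 to 13 lower with siSMARCA4. The calls that single libraries decided are given with the members. Scaling CPM by TMM with repeats in the total kept 71 of the members.

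The replicate labels (number and tag) did not pair the libraries: deviations of same-labelled siSMARCA4 and siNT libraries correlated at 0.08, 0.33 and -0.13. With the tag as a replicate block, 7 members were lower, and of the named values 56 were unchanged in call, 6 no longer passed and 2 newly passed. With the V or VM tag as a covariate 7 neighbours were higher with siSMARCA4, and with the opposite-strand share as a covariate also 7. In VM libraries alone, 4 members were lower and 8 neighbours higher. In number 4 libraries alone, 1 member was higher and 1 lower with siSMARCA4, 2 neighbours higher and 5 lower, 6 list genes higher and 12 lower (15 and 33 with all libraries), and 1 neighbour was higher with 4OHT. In libraries with a share over 1%, 21 list genes were lower with siSMARCA4. The causes were not tested, and the fits on VM libraries, on number 4 and on a share over 1% hold fewer libraries.

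Other member rules changed the number of genes tested. At a ratio of 8, 2 members were higher and 5 lower with siSMARCA4, with 0 neighbours higher and 14 lower with 4OHT and 1 higher and 5 lower with siSMARCA4. At a ratio of 2, these were 35 and 31 members, 14 and 143 neighbours, and 27 and 43 neighbours. With at least 1 CPM in DMSO, 7 neighbours were lower with siSMARCA4. Members chosen on number 2 gave 1 higher and 1 lower in number 4. Members sharing no exon on the same strand gave 3 higher and 6 lower. Within 200 kb, 5 neighbours were higher with 4OHT. Members without opposite-strand overlap gave 7 lower, with 1 neighbour higher and 20 lower with 4OHT and 1 higher and 4 lower with siSMARCA4. Depth limits members of a few reads in 4OHT, whose knockdown changes were mostly not detectable. The median log2 fold change over settings ran from -0.32 to -0.00058 for the members with siSMARCA4, from -2.73 (ratio of 8) to -0.65 (ratio of 2) for the neighbours with 4OHT, and from -0.31 to 0.04 for the neighbours with siSMARCA4.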
